A study of Rattus norvegicus with 4 samples.

Results

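Igkc and Igj are the 2 genes described here, out of 17853 in the deposited table of the series, and were found by their symbols. Igkc (ENSRNOG00000049829, chromosome 4 of the table) is the constant region of the immunoglobulin kappa light chain, and Igj (ENSRNOG00000003666, chromosome 14) is the joining chain, now called Jchain. The table held 1 row for each, and the mean of each over the libraries reached 1 RPKM (the unit of the table, a read number corrected for the length of the gene and the size of the library), as it did for 12160 genes in all. They were chosen by their RPKM levels in these same libraries, so the levels are a description and carry no test.

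The rats had an intracerebral hemorrhage, that is, blood had leaked into the brain tissue, and were studied at 13 months (adult) and at 21 months (old). Polyadenylated RNA was sequenced from ipsilateral and contralateral brain tissue at each age, which gave 4 groups with 1 library each. All 4 groups carry the hemorrhage, and the contralateral libraries are the opposite side of injured brains, not tissue of uninjured rats. Per the labels' protocols, RNA of 9 rat brains was pooled before sequencing, so differences between rats cannot be seen, and how many rats stand behind each library is not stated there. Strain, sex, the time after the bleeding and whether the vessels were rinsed are not given in the labels. There were no replicates, so no value below has an error and no difference has a test.

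B cells make antibodies from heavy chains and from kappa or lambda light chains, each assembled from variable segments and a constant region. On the B cell surface the antibody is held in the receptor complex with the signalling proteins encoded by Cd79a and Cd79b. Plasma cells, the antibody-secreting descendants of B cells, take down much of that surface machinery and make very large amounts of immunoglobulin mRNA. The joining chain links IgM and IgA into polymers that the receptor encoded by Pigr carries across epithelia. In healthy brain, cells of the B lineage are scarce in the tissue itself and are found mainly in the meninges and around the choroid plexus.

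The stretches upstream of Jchain and Cd79a are shown because Igj followed neither the side nor the age in the way the B cell receptor gene Cd79a did. Each holds the 250 bases before the annotated gene start, 5′ to 3′, from RefSeq on build GRCr8: chr14:19822726-19822975 on the plus strand and chr1:89621210-89621459 on the plus strand. Capitals mark matches of 3 searched motifs on either strand: the octamer ATGCAAAT, which Oct factors bind in immunoglobulin promoters, its last 7 letters TGCAAAT, and AGGAAGT, a form of the site of ETS factors. The motifs TGCAAAT and AGGAAGT were added after the sequences had been seen.
Jchain: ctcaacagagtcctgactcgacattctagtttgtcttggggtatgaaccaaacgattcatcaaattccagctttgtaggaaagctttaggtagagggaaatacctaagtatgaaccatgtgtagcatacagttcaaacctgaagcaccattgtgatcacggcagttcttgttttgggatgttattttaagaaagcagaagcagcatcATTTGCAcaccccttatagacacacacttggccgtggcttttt
Cd79a: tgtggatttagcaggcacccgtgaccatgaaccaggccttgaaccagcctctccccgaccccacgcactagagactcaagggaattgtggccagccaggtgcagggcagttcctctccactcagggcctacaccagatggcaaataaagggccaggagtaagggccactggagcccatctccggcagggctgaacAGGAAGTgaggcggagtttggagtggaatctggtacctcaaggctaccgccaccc
The Jchain stretch held TGCAAAT 1 time, on the minus strand, beginning 43 bases before the gene start, and held neither of the other motifs. The Cd79a stretch held AGGAAGT 1 time, on the plus strand, 55 bases before the start. Of 33469 upstream windows of this length in the RefSeq table, 1.56% held ATGCAAAT, 3.54% TGCAAAT and 7.08% AGGAAGT; the first motif contains the second. Such matches are letters in a window, and whether a factor bound there was not measured.

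Igkc separated the libraries by age and not by side. Its level was 2.65 RPKM ipsilaterally and 2.55 RPKM contralaterally at 13 months, and 24.87 RPKM ipsilaterally and 27.68 RPKM contralaterally at 21 months. Both 21 month libraries lay far above both 13 month libraries, and the sides of an age lay close together. From 13 to 21 months the level was 9.38 times as high ipsilaterally and 10.9 times contralaterally. On the scale of log2(RPKM + 1), used for all log2 ratios below, the age ratios were 2.83 and 3.01. The side ratios, ipsilateral over contralateral, were 0.04 at 13 months and -0.15 at 21 months, and the first of these turned to -0.04 with upper-quartile scaling of the libraries.

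The order of the Igkc levels from low to high was contralateral and ipsilateral at 13 months, then ipsilateral and contralateral at 21 months; with 1 library each, whether neighbours in this order differ beyond error cannot be said. Within a library, 43.0% and 45.5% of all genes had a lower value than Igkc at 13 months, ipsilateral first. At 21 months 84.7% and 87.4% did. The gene thus stood in the middle of the table in adult rats and in its upper part in old ones.

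Igj, the joining chain gene, followed another order. It had 2.51 RPKM ipsilaterally and 1.13 RPKM contralaterally at 13 months, and 2.68 RPKM ipsilaterally and 5.40 RPKM contralaterally at 21 months. The ipsilateral levels of both ages were close together, while the contralateral library was the lowest of the 4 at 13 months and the highest at 21 months. On the contralateral side the level was 4.78 times as high at 21 months, a log2 ratio of 1.59. On the ipsilateral side it was 1.07 times as high, a log2 ratio of 0.07. Between the sides the ipsilateral level was 2.22 times the contralateral one at 13 months and 0.496 times at 21 months. The log2 side ratios were 0.72 and -0.80, so the ipsilateral side was the higher of the sides in adult rats and the lower in old ones.

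**Figure D1:**
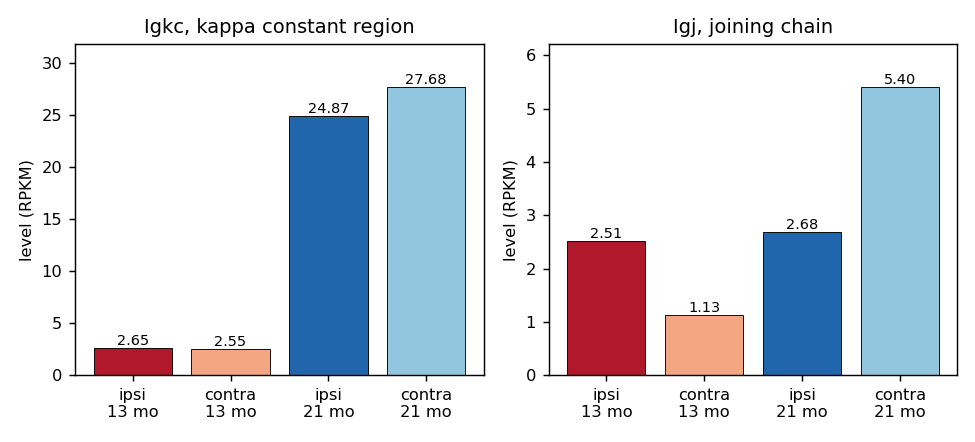
Level in RPKM on the y axis, which starts at 0, of Igkc (left) and Igj (right) in each of the 4 libraries, 1 bar per library and no error bars because there are no replicates. The Igkc bars are 2.65 and 2.55 RPKM at 13 months and 24.87 and 27.68 RPKM at 21 months, whereas the highest Igj bar is the contralateral one at 21 months, at 5.40 RPKM.

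Set against all genes, the age differences of Igkc were at the edge of the table. On the ipsilateral side 1 of the 2 genes, Igkc, was higher at 21 months by a log2 ratio of at least 1, beside 0.321% of 12160 genes. On the contralateral side both were, beside 0.206% of genes. Lower by as much were 0.658% and 0.132% of genes, and neither of the 2. Between the sides neither gene passed that size in either direction, although the side folds of Igj without added RPKM were just past 2-fold: 7.19% of genes were higher ipsilaterally by as much at 13 months and 5.61% at 21 months, and 0.0658% and 0.288% were lower. These shares are given as background only, since the same libraries served to choose the genes. Among all 12160 genes Igkc had rank 1 of the age ratio on each side, and Igj had rank 6 contralaterally and rank 5484 ipsilaterally.

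Only 6 of 12160 genes (0.0493%) were higher at 21 months by a log2 ratio of at least 1 on both sides. Igkc came first of them by the smaller of its age ratios, followed by ENSRNOG00000050708 and ENSRNOG00000048159, which have placeholder names in the table and lie on chromosome 6. The others were Ifit1, Isg15 and Rsad2, antiviral genes induced by interferon. Ifit1 had 6.33 and 1.34 RPKM at 13 months and 18.55 and 9.37 RPKM at 21 months, ipsilateral first, so that unlike Igkc it also differed between the sides, with side ratios of 1.65 and 0.91. At the other end, 5 genes (0.0411%) were lower at 21 months by as much on both sides. The largest falls on both sides were in class I genes of the rat major histocompatibility complex, which differ in sequence and number between rat strains. RT1-CE16 had 57.3 and 27.7 RPKM at 13 months and 4.82 and 2.98 RPKM at 21 months, and RT1-A1 had 44.2 and 14.2 against 7.40 and 3.83 RPKM. Immunoglobulin genes vary between strains too. Whether the rats of both ages carried the same alleles, and what part that has in the Igkc difference, was not tested.

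**Figure D2:**
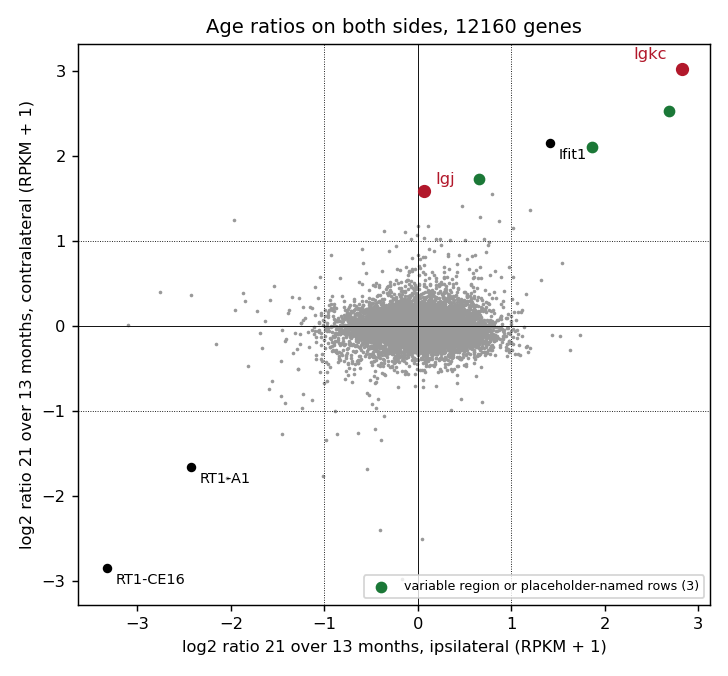
Grey points are the 12160 genes. The axes give the log2(RPKM + 1) difference of 21 minus 13 months, ipsilaterally (x) and contralaterally (y); dotted lines mark a 2-fold change. Igkc lies at the upper right corner at 2.83 and 3.01, Igj lies on the vertical axis at 0.07 and 1.59, the 3 green points are variable region or placeholder-named genes, and RT1-CE16 lies at the lower left at -3.32 and -2.85.

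Other immunoglobulin genes were read beside Igkc and Igj in the same libraries, with earlier results of these data known, so they are no separate readout. Ighm, the constant region of the IgM heavy chain, had 0.83 and 0.57 RPKM at 13 months and 0.91 and 0.64 RPKM at 21 months, ipsilateral first. It differed little by age, with age ratios of 0.06 on both sides, while Igkc was 3.19 and 4.47 times as high as Ighm at 13 months and 27.3 and 43.2 times as high at 21 months. The other 12 constant region entries searched for, of the IgG, IgA, IgD, IgE and lambda chains, matched no symbol and are not analysed here. Which heavy chain class went with the Igkc level therefore cannot be said.

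Variable segments encode the antigen-binding ends of the chains. Symbols, or descriptions picked by hand, marked genes of variable regions or immunoglobulin heavy chain protein. Outside the chromosome 6 block below these were 6 genes of the table. The 1 of them whose mean reached 1 RPKM was RGD1564318 on chromosome 11, described as similar to a light chain variable region. It had 2.52 RPKM ipsilaterally and 0.74 RPKM contralaterally at 13 months, and 4.53 and 4.74 RPKM at 21 months. Both 21 month values thus lay above both 13 month values, and the low one of the 4 was again the 13 month contralateral library, as for Igj. The remaining 5 genes did not exceed 0.22 RPKM in any library. The kappa variable gene Igkv5-48 was listed at 0.22 RPKM in the 21 month contralateral library and at 0 in the other libraries.

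A block of 17 placeholder-named genes on chromosome 6, whose names share their first letters and digits, includes 2 that the table describes as Ighv7-1 and Ighv13-1, heavy chain variable segments; most others are described only as uncharacterized proteins. The block was picked out after its values were seen. Its summed level was 0.44 RPKM ipsilaterally and 0.35 RPKM contralaterally at 13 months, and 10.5 and 11.6 RPKM at 21 months. Values above 0 were listed for 4 and 3 of the 17 genes at 13 months and for 13 and 11 at 21 months. In 11 genes a value above 0 appeared at 21 months alone and in 2 at 13 months alone, beside 642 and 535 of all 17853 genes. ENSRNOG00000050708 had 0 and 0.05 RPKM at 13 months and 5.44 and 5.03 RPKM at 21 months, and ENSRNOG00000048159 was listed at 0 in both 13 month libraries and at 2.65 and 3.30 RPKM at 21 months. The gene described as Ighv7-1 had 0.12 and 0.26 RPKM at 13 months and 0.78 and 1.68 RPKM at 21 months. Without the 2 highest genes the sums of the other 15 were 0.44 and 0.30 RPKM at 13 months and 2.43 and 3.22 RPKM at 21 months. Both 21 month values exceeded both 13 month values in 8 of the 17 genes, beside 10.9% of all 17853 genes. Variable segments resemble each other closely, so how the authors' alignment divided reads among them is uncertain.

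**Figure D3:**
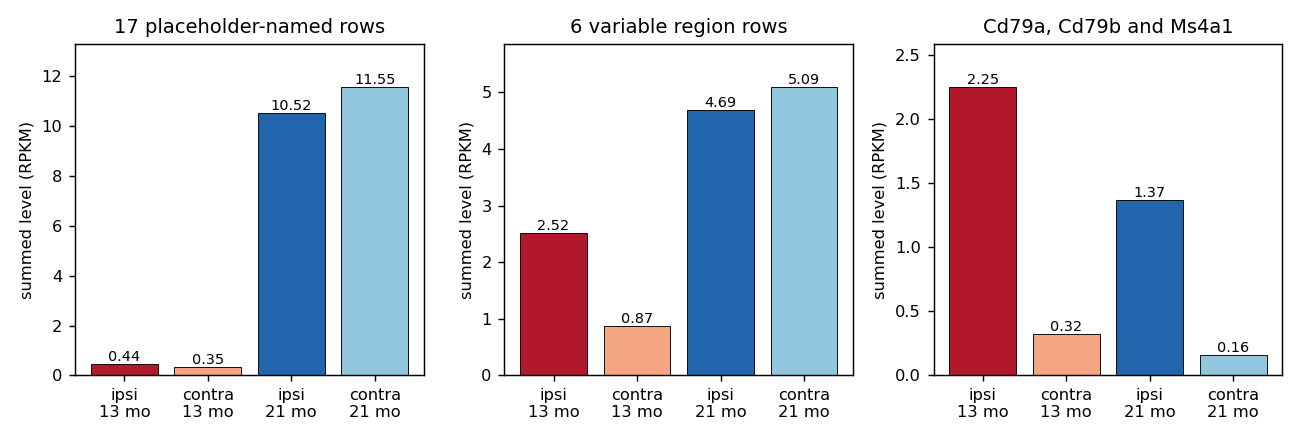
Summed level in RPKM on the y axis, starting at 0, in each library (1 bar per library, no error bars). The panels show the 17 placeholder-named genes of chromosome 6 (left) and the B cell surface genes Cd79a, Cd79b and Ms4a1 (right). Between them are the 6 genes of variable regions or immunoglobulin heavy chain protein (middle), whose sum comes nearly all from RGD1564318. The left panel separates the ages, at 0.44 and 0.35 against 10.5 and 11.6 RPKM, and the right panel separates the sides, with the ipsilateral bars at 2.25 and 1.37 RPKM.

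Cd79a, Cd79b and Ms4a1, genes of the B cell surface, were higher on the side of the bleeding at both ages. None of these 3 was higher at 21 months, when Igkc was. Cd79a had 0.72 RPKM ipsilaterally and 0.08 RPKM contralaterally at 13 months, and 0.57 and 0.08 RPKM at 21 months. Cd79b, the partner of Cd79a in receptor signalling, had 0.62 and 0.04 RPKM at 13 months and 0.45 and 0.01 RPKM at 21 months. Both ipsilateral libraries were above both contralateral ones for each gene, and at 21 months neither was above its 13 month level on either side. Ms4a1, which encodes the surface protein CD20, had 0.91 and 0.20 RPKM at 13 months and 0.35 and 0.07 RPKM at 21 months, and so was lower in the old library on each side. All values of these 3 genes were under 1 RPKM, and the contralateral ones lay near the smallest step of the table, 0.01 RPKM, so they are the least certain. Their sum was 2.25 and 0.32 RPKM at 13 months and 1.37 and 0.16 RPKM at 21 months. Igkc was 1.18 times that sum in the ipsilateral and 7.97 times in the contralateral library at 13 months, and 18.2 and 173 times at 21 months. The level of Igkc relative to these 3 genes was thus lowest in the adult ipsilateral library and highest in the old contralateral one, where the sum is close to the rounding step. In bulk tissue, fewer cells of a type and less RNA per cell cannot be told apart.

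Of 23 genes on a list of the B cell lineage 22 were matched, 6 of them with a mean reaching 1 RPKM. Counting any difference in value, 21 of 22 were higher ipsilaterally at 13 months, beside 49.4% of all genes, and 19 of 22 at 21 months, beside 56.9%. Lower ipsilaterally at 21 months were 3 of 22, Ebf1 and the surface receptor genes Tnfrsf13c and Fcer2. Tnfrsf13c had 0.40 and 0.18 RPKM at 13 months and 0.14 and 0.30 RPKM at 21 months, ipsilateral first. In 16 of 22 both ipsilateral values lay above both contralateral values, beside 30.3% of all genes. By age 21 of 22 were lower at 21 months ipsilaterally (44.2% of all genes) and 16 of 22 contralaterally (52.2%). In 0 of 22 did both 21 month values exceed both 13 month values, beside 10.9% of all genes. The median side ratio of the 6 genes above 1 RPKM was 1.52 at 13 months and 1.52 at 21 months, beside 0.01 and 0.09 over all genes, and their median age ratios were -0.30 ipsilaterally and -0.17 contralaterally, beside 0.03 and -0.03.

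Members of that list with the highest levels are also expressed by microglia or macrophages. Cd72, a receptor of B cells and some myeloid cells, had 10.9 and 1.82 RPKM at 13 months and 7.47 and 0.49 RPKM at 21 months. Blnk, an adaptor of B cell receptor signalling, had 29.1 and 9.99 RPKM and then 29.1 and 8.94 RPKM, and the kinase gene Btk had 6.12 and 0.87 RPKM and then 4.24 and 0.94 RPKM. The exception was Ebf1, a transcription factor gene of early B cells that other tissue cells also express, with 1.75 and 1.52 RPKM and then 1.35 and 1.57 RPKM. The members named next did not exceed 1.61 RPKM in any library. Cd22, an inhibitory receptor of B cells, had 1.61 and 0.56 RPKM and then 1.09 and 0.29 RPKM. Fcrla, an Fc receptor-like gene of B cells, had 0.59 and 0.07 RPKM and then 0.33 and 0.04 RPKM. Both again had their high values ipsilaterally. Pax5, the B cell identity factor, ranged from 0.04 to 0.09 RPKM, and Pou2af1, a coactivator of octamer-binding factors in B cells, had 0.51 and 0.06 RPKM at 13 months and 0.23 and 0.05 RPKM at 21 months. A list of 12 monocyte and macrophage genes moved with the side as well, with summed levels of 895 and 113 RPKM at 13 months and 475 and 75.8 RPKM at 21 months, and 12 of 12 higher ipsilaterally at each age, beside 49.4% and 56.9% of all genes. Its part in the B cell list was not tested.

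**Figure D4:**
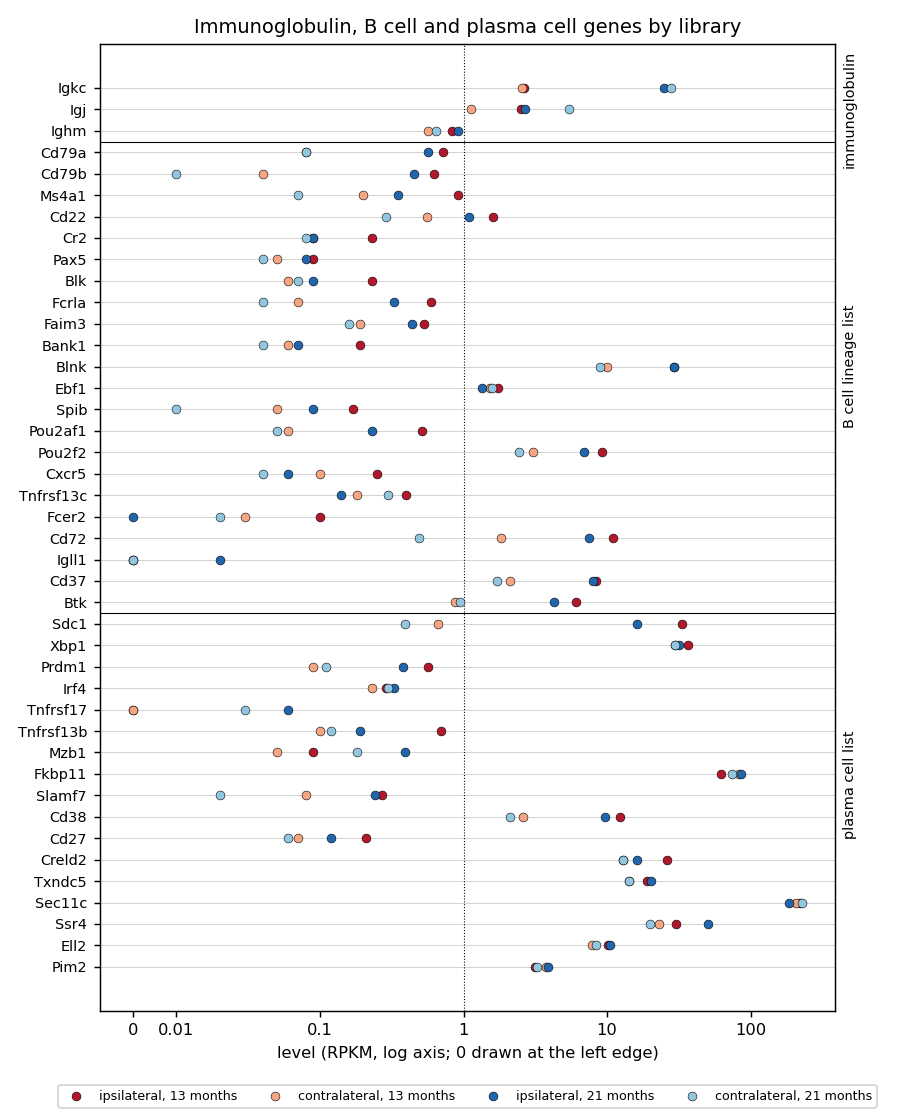
Level in RPKM on a log x axis (values of 0 drawn at the left edge, and equal values overlap) of the matched immunoglobulin, B cell and plasma cell genes, 1 point per library. The blue points of Igkc, for 21 months, lie at 24.87 and 27.68 RPKM, apart from its red ones, for 13 months, at 2.65 and 2.55 RPKM, whereas for Cd79a and Cd79b the dark ipsilateral points lie to the right of the pale contralateral ones.

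Genes of plasma cells were mixed. Mzb1, a chaperone of immunoglobulin assembly in B and plasma cells, had 0.09 RPKM ipsilaterally and 0.05 RPKM contralaterally at 13 months, and 0.39 and 0.18 RPKM at 21 months. Tnfrsf17, the survival receptor BCMA of plasma cells, was listed at 0 in both 13 month libraries and at 0.06 and 0.03 RPKM at 21 months. For both genes the old libraries lay above the adult ones on each side, as for Igkc, but at levels under 0.4 RPKM. Irf4, a transcription factor gene of plasma cell formation, had 0.29 and 0.23 RPKM and then 0.33 and 0.30 RPKM. These were the 3 of 17 matched genes (of 18 on the list) in which both 21 month values exceeded both 13 month values, beside 10.9% of all genes.

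Other plasma cell genes followed the side. Prdm1, which encodes the plasma cell regulator Blimp-1, had 0.57 and 0.09 RPKM at 13 months and 0.38 and 0.11 RPKM at 21 months. Sdc1, a surface proteoglycan that marks plasma cells and is also made by epithelial and other cells, had 33.25 and 0.66 RPKM and then 16.2 and 0.39 RPKM. Xbp1, a transcription factor of the secretory pathway in many cell types, differed little, between 29.6 and 36.6 RPKM. Both ipsilateral values lay above both contralateral values in 11 of 17 genes, beside 30.3% of all genes. Of the 10 genes whose mean reached 1 RPKM, 2 and 3 were higher ipsilaterally by a log2 ratio of at least 1 at 13 and 21 months, beside 7.19% and 5.61% of all genes. By age 0 of 10 were higher at 21 months by as much on either side, which is near the 0.321% and 0.206% of all genes.

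Of 14 matched genes for signals that draw and sustain B cells, 9 had both ipsilateral values above both contralateral ones, beside 30.3% of all genes. Cxcl13, the chemokine that draws B cells through Cxcr5, had 208 RPKM ipsilaterally and 24.1 RPKM contralaterally at 13 months, and 142 and 6.78 RPKM at 21 months. It was lower in old rats on both sides, while Igkc was higher. Cxcr4, a receptor that holds plasma cells and other leukocytes in tissue, had 24.04 and 1.47 RPKM and then 12.4 and 1.26 RPKM, and its ligand gene Cxcl12 ran the other way, with 5.19 and 7.35 RPKM and then 6.02 and 7.15 RPKM. S1pr1, a receptor that guides lymphocytes out of tissue and is also made by astrocytes and vessels, was likewise higher contralaterally, with 20.5 and 24.2 RPKM and then 21.4 and 22.8 RPKM. Tnfsf13b, which encodes the B cell survival factor BAFF and was picked out after its values were seen, had 5.10 and 0.74 RPKM and then 3.24 and 0.35 RPKM. Of the 14 genes, 12 were lower at 21 months contralaterally and 10 ipsilaterally, beside 52.2% and 44.2% of all genes.

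Receptors that bind or carry antibodies were read beside the antibody genes. Pigr, the carrier of polymers that contain the joining chain, had values from 0.03 to 0.10 RPKM. Fcgr1a, a high-affinity IgG receptor of macrophages, had 23.2 and 2.76 RPKM at 13 months and 14.95 and 2.66 RPKM at 21 months, and Fcgr2b, the inhibitory IgG receptor, had 20.3 and 2.97 RPKM and then 10.99 and 2.0 RPKM. Of 9 matched genes, 3 were higher at 21 months on each side, beside 20.6% of all genes, and in 0 did both 21 month values exceed both 13 month values, beside 10.9%, so that both counts lie near those of all genes. Of the genes that rearrange or modify immunoglobulin genes, 8 of 10 were matched. Higher ipsilaterally were 5 of the 8 at 13 months and 4 at 21 months, beside 49.4% and 56.9% of all genes. In 3 of the 8 both ipsilateral values lay above both contralateral values, beside 30.3%, so that the count lies near that of all genes. Dntt and Ung had the highest side ratios at 13 months, whereas Xrcc4 was lower ipsilaterally then, at 7.47 against 9.09 RPKM. Dntt, the terminal transferase that adds bases at the joints, had 1.92 and 0.15 RPKM and then 0.97 and 0.13 RPKM, and Ung, a uracil glycosylase of DNA repair that also acts in class switching, had 4.45 and 1.71 RPKM and then 3.84 and 1.71 RPKM.

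Antigen presentation genes of MHC class II, which B cells, macrophages and activated microglia express, were higher ipsilaterally. By age most were lower at 21 months on that side, and they divided on the contralateral side. Cd74, the invariant chain, had 83.8 and 17.6 RPKM at 13 months and 65.1 and 39.5 RPKM at 21 months, and RT1-Da had 14.7 and 1.93 RPKM and then 13.3 and 5.31 RPKM. All 9 matched genes of the list were higher ipsilaterally at each age, beside 49.4% and 56.9% of all genes. Ipsilaterally 6 of the 9 were lower at 21 months, beside 44.2% of all genes. The median ipsilateral age ratio of the 6 genes whose mean reached 1 RPKM was -0.62, beside 0.03 over all genes. Of these, 2 were lower by a log2 ratio of at least 1, beside 0.658% of all genes. Contralaterally 4 were higher and 4 lower at 21 months, and the median age ratio of the 6 genes whose mean reached 1 RPKM was -0.04, beside -0.03 over all genes. Of these 6, Cd74 and RT1-Da had contralateral age ratios past 1, at 1.12 and 1.11, beside 0.206% of all genes, whereas RT1-Bb, which is picked out here after its values were seen, went from 0.80 to 0.35 RPKM, a ratio of -0.42. T and NK cell genes followed the side, with 16 of 16 matched genes higher ipsilaterally at 13 months and 15 of 16 at 21 months, beside 49.4% and 56.9% of all genes. They summed to 54.7 and 8.51 RPKM at 13 months and to 33.3 and 8.59 RPKM at 21 months. Most of that sum came from Cd8a, with 21.8 and 0.51 RPKM and then 8.32 and 0.25 RPKM, and Cd4, with 14.5 and 5.40 RPKM and then 19.0 and 5.87 RPKM. Cd3e had 1.11 and 0.28 RPKM and then 0.51 and 0.32 RPKM. Which cells of the tissue gave the Cd8a and Cd4 levels was not tested, so the sum is no measure of T and NK cells. Ipsilaterally 15 of the 16 were lower at 21 months, beside 44.2% of all genes. Contralaterally 6 were lower, beside 52.2% of all genes, and 9 were higher.

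Markers of blood and of neighbouring tissue were read in the same libraries. Markers of the labelled tissue, brain, were high: 8 neuron genes summed to between 1155 and 1612 RPKM and 6 oligodendrocyte genes to between 1869 and 2555 RPKM. The 5 matched erythroid genes summed to 52.9 and 61.3 RPKM at 13 months and to 36.0 and 58.2 RPKM at 21 months. Compared within each side, their sum was thus lower at 21 months. In 1 of the 5, Slc4a1 at no more than 0.12 RPKM, both 21 month values exceeded both 13 month values, beside 10.9% of all genes. The part of blood in the level of Igkc was not tested. Genes of the meninges and perivascular fibroblasts summed to 53.6 and 40.8 RPKM and then to 43.5 and 46.0 RPKM over 10 genes. In 0 of the 10 did both 21 month values exceed both 13 month values, beside 10.9% of all genes, so that the count lies near that of all genes. Choroid plexus genes summed to 676 and 1229 RPKM at 13 months and to 1074 and 1809 RPKM at 21 months over 8 genes, nearly all from Ttr, and 5 of the 8 were higher at 21 months on each side, beside 20.6% of all genes. Like Igkc and Igj, this sum was highest in the 21 month contralateral library. Unlike both, it was lowest in the 13 month ipsilateral library. The part of choroid plexus tissue in the levels of Igkc and Igj was not tested. Pituitary and pineal genes varied by library, with Tph1 of the pineal gland at 10.4 RPKM in the 13 month contralateral library and at most 0.44 RPKM elsewhere.

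The genes nearest to Igkc and Igj in pattern were ranked by the root mean square difference of log2(RPKM + 1) over the 4 libraries, each gene centred on its own mean. For Igkc the nearest genes with proper names were Ifit1 (0.89), Car3 (0.93), Lect1 (0.96), Eid2b (1.02), Pld5 (1.05), Pdk4 (1.06), Isg15 (1.09) and Igj (1.10), none of them close beside a median of 1.47 over all genes. The placeholder-named ENSRNOG00000050708 (0.18) and ENSRNOG00000048159 (0.47) were nearer than any of these, and RGD1564318 had 0.93. For Igj the nearest were Gbp1 (0.23), an interferon-induced GTPase gene, the ribosomal protein gene Rpl39 (0.26), Ccdc37 (0.28), Pomc (0.29), the precursor of pituitary and hypothalamic peptides, Cdh1 (0.32), Kcne2 (0.35), a potassium channel subunit of the choroid plexus, Pdk4 (0.35) and Klhdc4 (0.35), beside a median of 0.60 over all genes. Pomc had 3.44 and 2.73 RPKM at 13 months and 3.25 and 5.47 RPKM at 21 months, and Kcne2 had 1.84 and 2.26 RPKM and then 2.85 and 4.82 RPKM. With 4 libraries, many genes share a pattern.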

How the data were processed

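RNA came from 9 rat brains and was pooled after DNase treatment, per the labels' protocols; 10 µg per sample was purified with oligo(dT) beads, made into directional libraries, and products of 200 to 500 bp were kept. The authors deposited RPKM values, rounded to 2 decimals, for 17853 genes. Cutadapt, TopHat2 and edgeR are named without versions or roles, per the submitters' processing notes. The build listed there is GRCh38, which is human, although the table uses rat identifiers, so the build is not settled. How reads were counted, which gene lengths were used and how genes were filtered is not given in the sources used here. Sequencing depth is unknown: the table holds no counts, and its lowest values above 0 equal the rounding step of 0.01 RPKM.

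Columns were matched to samples by age and side code. Log2 ratios were taken on log2(RPKM + 1), which understates changes of low genes, and genes whose mean reached 1 RPKM were kept for counts and ranks, with pandas 2.3.3 in Python 3.11.15. With 1 library per group nothing was tested. Ratios and counts were checked on simulated data. The 17 gene lists held 205 entries, of which 175 were matched, 1 of them by an older symbol, and 1 repeated another entry; 1 further gene of the B cell list is not reported here. Where a symbol occurred more than once, the gene with the highest mean was used. Igkc, Igj and the lists were chosen with earlier results of these data known. Genes that could be named were any matched gene of the immunoglobulin, B cell and plasma cell lists, of the other lists the 2 highest and 2 lowest by side ratio at 13 months, and the 8 nearest patterns; not all of these are printed, and the choice among them, like any further gene, was made with the values in view. Alternatives were a pseudocount of 0.1, 3 scalings, and other filters on low values.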

Additional observations from a re-analysis of the deposited data

Results flagged for a closer look

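The side ratio of Igj had opposite signs at the ages, 0.72 at 13 months and -0.80 at 21 months, a difference of -1.52 on the log2 scale. That of Igkc also changed sign, from 0.04 to -0.15, a difference of -0.19, which is small beside its age ratios. Neither difference was tested, since each rests on 4 single libraries.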

How the results depend on the processing

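The 8 log2 ratios of Igkc and Igj were recomputed with 0.1 RPKM added in place of 1, with median-ratio and upper-quartile scaling, and with sums made equal without mitochondrially encoded genes. With no replicates or counts to give an error, a ratio was taken as unchanged within 1.5-fold, and all 32 recomputed ratios were. The Igkc age ratio ranged from 2.76 to 3.18 ipsilaterally and from 3.01 to 3.39 contralaterally. The Igj age ratio ranged from 1.59 to 2.16 contralaterally and from 0.02 to 0.09 ipsilaterally. The Igj side ratio ranged from 0.65 to 1.09 at 13 months, passing 1 with 0.1 RPKM added, and from -0.98 to -0.80 at 21 months. The Igkc side ratio at 13 months was above 0 under 3 of 5 settings and below 0 under 2.

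The count of genes past 2-fold in either direction moved by more than 1.5 times in 5 of 24 cases. With 0.1 RPKM added it was 227 in place of 119 for the ages ipsilaterally and 104 in place of 41 contralaterally, where the share of higher genes fell from 61.0% to 46.2%. With median-ratio scaling that share was 20.5% in place of 32.8% ipsilaterally. With a mean of at least 5 RPKM, which leaves fewer genes and leaves out Igj, it was 497 in place of 882 for the sides at 13 months, 443 in place of 717 at 21 months, and 25 in place of 41 for the ages contralaterally. No paired analysis was possible because the values reported come from no test; an additive fit of side and age to the 4 libraries was not made. Depth is unknown, so values under 1 RPKM, which include Cd79a, Cd79b, Ms4a1 and most variable segments, have unknown precision.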
